A study of Caenorhabditis elegans with 11 samples.

Results

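The genes described here are the long intergenic noncoding RNA genes (linc) and the antisense noncoding RNA genes (anr) of Caenorhabditis elegans, chosen by name as every counted gene called linc or anr followed by a number. There were 216 of them among 42048 counted genes, 161 linc and 55 anr. RNA from whole adult worms was sequenced in 11 libraries to compare old with young worms, worms on bacteria with and without indole, and mutants of the receptor ahr-1 with wild type. The 5 groups were ahr-1(ia3) mutants, in which the worm's aryl hydrocarbon receptor has lost its function, on K12 bacteria, late (n = 2); wild-type N2 worms on tnaA bacteria, late (n = 2); N2 worms on K12, late (n = 2); N2 worms on tnaA, early (n = 2); and N2 worms on K12, early (n = 3). K12 is an indole-producing Escherichia coli strain, and tnaA is its mutant without tryptophanase, which cuts indole from tryptophan. Late worms were 12 days old, and early worms were 3 days old by the sample labels but 2 days old by the design text. All worms were kept at 16 °C on their bacteria from the embryo on, and each library was a biological replicate made from about 150 pooled adults, with no early mutant group among these libraries.

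Long noncoding RNAs are transcripts without a long open reading frame. Intergenic ones lie between coding genes, whereas antisense ones are read from the strand opposite a coding gene and can share bases with its message. Most worm lincRNAs were annotated from sequencing alone and have no assigned role. Such transcripts can be removed by the nuclear exosome and by exonucleases, and silenced by small RNA pathways.

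Against the Ensembl 115 annotation of WBcel235, used only for names, exon lengths and neighbours because the build of the deposited counts is not given in the sources used here, all 216 genes were matched. Their summed exon length had a median of 456.5 nt and ranged from 101 to 4183 nt, and 80 genes had a single exon. Exons of 54 genes, 40 of them anr, lay opposite a coding exon. A further group of 24 genes, which can include some of those 54, shared bases with a coding exon of the same strand, and 144 genes touched no coding exon. Some of these 144 share exon bases with genes that are not protein-coding, up to 100% in linc-59. The counting's strand setting is not given in the sources used here. Whether reads of an antisense gene and of its coding partner were told apart where their exons meet is therefore not known.

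Libraries held 8310145 to 15307891 gene reads, the lowest of them late tnaA replicate 3, and 1 read stood for 0.0653 to 0.12 RPM, where RPM is the share of gene reads in parts per 1e6. The mutated gene, ahr-1, had 1.59 and 1.03 CPM (RPM divided by the TMM factor of the library) in late ahr-1 libraries, against 3.2 and 2.12 CPM in late N2 libraries on K12, where the test did not separate them (log2 fold change -1.03 ± 0.47, edgeR adjusted p = 0.130). TMM factors were 1.14 to 1.17 in late and 0.820 to 0.877 in early libraries. Sperm marker transcripts were highest in a pair of early libraries, with a summed level of 317 CPM in early tnaA replicate 2 and 278 CPM in early K12 replicate 3, against 32.9 to 94.96 CPM in the other early libraries.

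The noncoding genes were low and uneven. They took 23251 reads in all libraries together, of which linc-22 had 5067 and linc-7 had 3934. These 2 genes held 38.7% of the reads, and the 10 genes with most reads held 66.3%. No read fell on 17 genes, 66 had 1 to 10 reads, 102 had 11 to 100 and 31 had more. Only 47 genes had a read in every library. Per kilobase of exon, the highest mean level belonged to linc-6 (33.2 CPM per kb), a gene of 174 nt, followed by linc-7 (24.4), linc-2 (20.9), linc-9 (15.4) and anr-8 (15.1).

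The summed level of all 216 genes was higher in every late library than in every early one. It was 230 and 185 RPM in late ahr-1 libraries, 245 and 290 in late tnaA libraries, 193 and 194 in late K12 libraries, 92.8 and 88.2 in early tnaA libraries, and 101, 88.9 and 96.3 in early K12 libraries. The late mean, with the ahr-1 libraries included, was 223 ± 40.8 (SD, n = 6) and the early mean 93.4 ± 5.24 (SD, n = 5), a ratio of 2.39. The ratio was 2.33 for linc genes and 2.80 for anr genes. It was 1.82 without linc-22 and 1.75 on TMM-scaled values, so its size depended on 1 gene and on the scaling. Its direction held under each of these changes alone, and both together were not tried. In samples of whole animals, more cells of a type and more RNA per cell cannot be told apart. These sums are given as a description with no test.

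In RPM, the sum was also higher in late libraries once genes that overlap coding exons were left out. The 144 genes without a coding exon base summed to 148 to 235.5 RPM in late libraries, against 75.0 to 87.6 in early libraries, a ratio of 2.26. These 144 genes include linc-22, and their sum was not taken without it or on TMM-scaled values. Whether the rise of this set holds under both changes, on either bacterium, is therefore not shown. The 72 genes with a coding exon base summed to 33.6 to 54.99 RPM in late and 13.1 to 13.8 RPM in early libraries, a ratio of 3.13. The 54 genes opposite a coding exon had a ratio of 2.37. More genes were also seen at all in old worms, with a read on 134 to 160 of the 216 in late libraries and on 97 to 109 in early libraries, although late tnaA replicate 3 and both ahr-1 libraries were the shallowest of the 11.

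Reads in no annotated gene were also a larger share in late libraries. They made up 13.8% and 11.6% of counted reads in late ahr-1 libraries, 9.26% and 14.8% in late tnaA libraries, 8.56% and 8.27% in late K12 libraries, 7.07% and 6.95% in early tnaA libraries, and 7.19%, 7.16% and 6.14% in early K12 libraries. Every late library lay above every early one. The late mean was 11.05% ± 2.80 (SD, n = 6) against an early mean of 6.90% ± 0.437 (SD, n = 5), a difference of 4.15 percentage points with a two-sided exact permutation p = 0.00433, the smallest these group sizes allow. The test pooled both bacteria and both genotypes. Since ahr-1 worms had no early libraries, age is partly mixed with genotype in it. In N2 worms the means were 8.41% late and 6.83% early on K12, and 12.05% late and 7.01% early on tnaA. Within each bacterium the late and early N2 libraries were also apart, but 2 against 3 or 2 against 2 libraries cannot reach p under 0.05. Ambiguous reads stayed between 0.267% and 0.296% in all 11 libraries.

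In late tnaA worms, replicate 3 had both the larger share of reads outside genes and the larger noncoding sum, and in late ahr-1 worms replicate 1 did. Each was also the shallower of its pair, with 8310145 against 14695180 gene reads on tnaA and 10373031 against 11855755 in ahr-1 worms. The part of depth in both measures was not tested. The late K12 libraries lay close together in both measures. Whether reads from outside genes contribute to the counts of the noncoding genes was not tested.

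**Figure D1:**
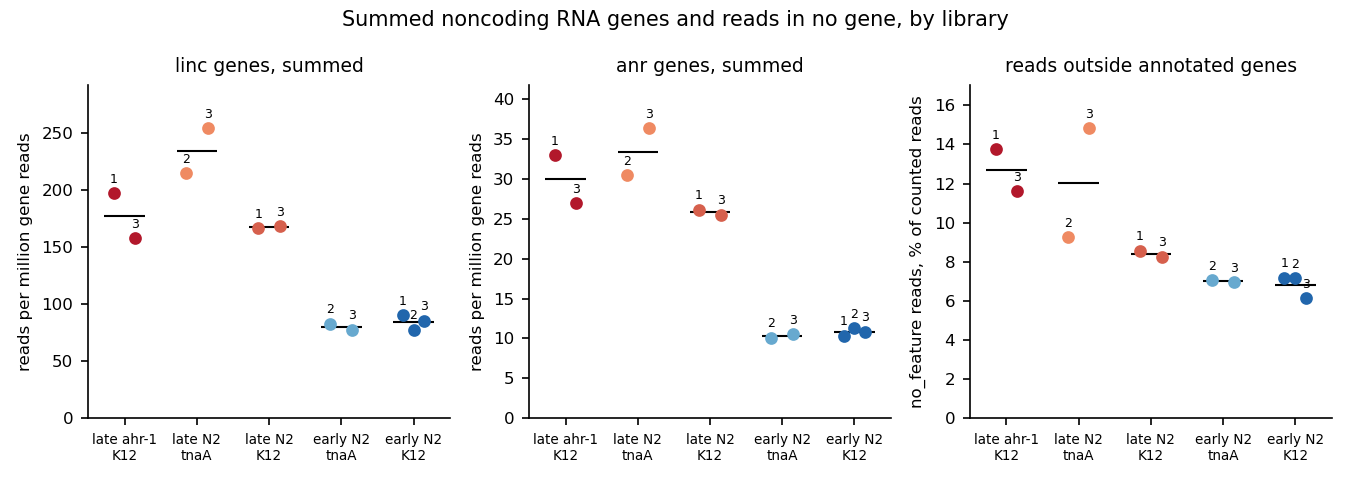
Summed reads of the linc genes (left) and anr genes (middle) in RPM, and reads in no annotated gene as a percentage of counted reads (right), for each library; numbers beside points are replicate numbers and lines are group means. All 6 late libraries lie above all 5 early libraries in each panel, and late tnaA replicate 3 is the highest of the 11.

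A gene was tested where enough libraries had at least about 10 reads for edgeR's filter, which 55 of the 216 passed (44 linc and 11 anr), among 15133 tested genes in all. The 161 untested genes had a median of 10 reads over all libraries and at most 61, in linc-45. Their exons were shorter, with a median of 423 nt against 629 nt in tested genes. Their sum was 18.4 to 25.9 RPM in late libraries and 7.32 to 8.74 in early libraries, a ratio of 2.69. A gene could pass the filter through its high group alone, so the calls below describe the tested genes and not all 216.

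On K12, 22 of the 55 tested genes rose with age (40%) and 7 fell (12.7%), where edgeR's quasi-likelihood test called 32.9% of all 15133 tested genes higher and 36.7% lower at an adjusted p under 0.05. The rising share is thus near the background, and the falling share is lower. The median log2 fold change, late over early, was 0.89 for the noncoding genes and -0.04 for all genes. With library sizes in place of TMM factors, the median of all genes moved by 0.42 on K12 and by 0.47 on tnaA, and that of the noncoding genes was 1.30 on K12.

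On tnaA, 24 of the 55 rose (43.6%) and 3 fell (5.45%), against 35.6% and 36.3% of all tested genes. With library sizes in place of TMM factors, 29 rose and 3 fell on K12 and 36 rose and 2 fell on tnaA, where 51.2% of all genes rose and 20.1% fell on K12 and 51.8% rose and 20.7% fell on tnaA. The median log2 fold change was 1.40 for the noncoding genes and 0.02 for all genes. With genes that had 0 early reads set at their lower bounds, the medians were again 0.89 on K12 and 1.40 on tnaA. Of the 11 tested anr genes, 6 rose on K12 and 5 on tnaA, and none was called lower on either. At an unadjusted p under 0.05 there were 30 noncoding genes on each bacterium (54.5%), against 71.9% of all genes on K12 and 74.1% on tnaA. DESeq2 called 17 noncoding genes higher on each bacterium, with 5 lower on K12 and 3 on tnaA.

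The comparisons on K12 and on tnaA share no library. Of the 55 tested noncoding genes, 16 rose and 3 fell on both bacteria. Another 10 were called on K12 alone and 8 on tnaA alone, and 0 were called in opposite directions. Of all 15133 tested genes, 9524 were called on both in the same direction, a larger share than the 19 of 55 noncoding genes. As a description, the log2 fold changes correlated with r = 0.855 over the 55 genes and r = 0.916 over all genes tested. Genes are not independent replicates. A call on one bacterium alone does not show a difference between bacteria, which is tested further on.

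**Figure D2:**
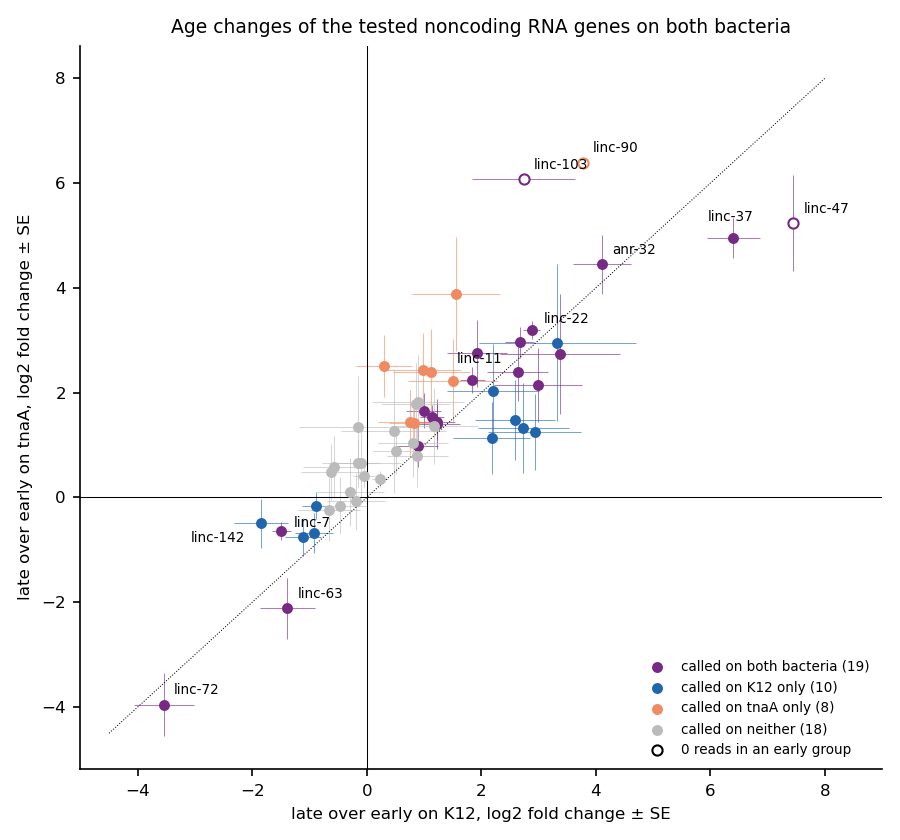
Log2 fold change of late over early worms on K12 (horizontal) and on tnaA (vertical) with standard errors for the 55 tested noncoding genes; the dotted line marks equal changes. Colours give the calls (19 on both, 10 on K12 only, 8 on tnaA only, 18 on neither), and open circles are genes with 0 reads in an early group, whose position depends on the prior count.

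The gene with most reads, linc-22, lies between F47E1.4 and F47E1.1 and spans 4071 nt of exon. It had 55.7 and 44.1 CPM in late ahr-1 worms, 57.2 and 71.4 CPM in late tnaA worms, 52.1 and 48.4 CPM in late K12 worms, 6.12 and 7.75 CPM in early tnaA worms, and 6.08, 6.25 and 8.09 CPM in early K12 worms. All late libraries were far above all early ones. The log2 fold change was 2.88 ± 0.15 on K12 and 3.2 ± 0.17 on tnaA (edgeR adjusted p = 1.46e-09 and 1.69e-09). Its left neighbour F47E1.4 fell on K12 (-1.36 ± 0.23, edgeR adjusted p = 1.11e-04). Its right neighbour F47E1.1 rose, at a mean of 0.822 CPM in late and 0.0534 CPM in early K12 worms (edgeR adjusted p = 0.00228).

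Other abundant intergenic genes rose on both bacteria. For linc-11, levels were 12.0 and 14.2 CPM in late tnaA worms, 10.9 and 9.92 CPM in late K12 worms, 1.78 and 1.55 CPM in early tnaA worms, and 0.833, 2.00 and 2.02 CPM in early K12 worms. Its change was 2.67 ± 0.26 on K12 and 2.96 ± 0.29 on tnaA, beside a rise of 2.40 ± 0.20 on K12 in its right neighbour bath-10, a gene of the BATH family. Smaller rises were seen for linc-29 (1.84 ± 0.22 on K12 and 2.24 ± 0.25 on tnaA) and linc-8 (1.14 ± 0.22 and 1.53 ± 0.24). The groups of these genes did not overlap between ages on either bacterium.

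Some genes were nearly silent in young worms. linc-47 had 55 reads in late K12 libraries and 0 in early K12 libraries, at least 20.1-fold higher against a floor of 3 reads over the group. On tnaA it had 49 reads in late and 1 in early libraries, a ratio of 46.2 with an exact 95% counting interval of 7.92 to 1860. linc-37 had 180 reads in late K12 and 2 in early K12 libraries, a ratio of 98.8 (27 to 822). Counting intervals cover counting error only, since the reads carry no molecular identifiers.

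linc-37 shares 25.8% of its exon bases with zip-2, on the same strand. zip-2 encodes a bZIP transcription factor of the response to bacterial infection, and it rose as well, with 731 CPM in late and 158 CPM in early K12 worms (log2 fold change 2.21 ± 0.07, edgeR adjusted p = 4.30e-11). The mode in which reads were assigned to genes is not given in the sources used here. Reads on exons of both genes may have been set aside as ambiguous and counted for neither gene. How much of the linc-37 count is zip-2 was not tested. linc-37 had 7.54 and 10.4 CPM in late tnaA worms, 4.97 and 5.63 CPM in late K12 worms, and at most 0.388 CPM in any early library.

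linc-90 and linc-103 had 0 reads in early tnaA worms and rose on tnaA by at least 6.6-fold and 5.03-fold. linc-90 had 21 reads in late tnaA, 4 in late K12 and 0 in early K12 libraries. It may thus have passed the filter through late tnaA alone, the group then called higher, so its call is only a description. linc-25 rose on tnaA with 33 reads in late and 2 in early libraries, a ratio of 15.6 (3.98 to 134). Of its exon bases, 71.9% are shared with exons of genes that are not protein-coding. On K12 the genes anr-24, anr-45, linc-116 and linc-30 rose on 20 to 24 late reads against 2 or 3 early ones, and their ratios of 7.32 to 12.1 have wide intervals, from 2.17 at the lowest to 106 at the highest. At such counts the size of a change is loosely set, and anr-24 was not called without late K12 replicate 1.

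Among antisense genes, anr-32 had 4.43 and 3.32 CPM in late ahr-1 worms, 3.89 and 3.40 CPM in late tnaA worms, 2.46 and 2.48 CPM in late K12 worms, and 0 to 0.25 CPM in the 5 early libraries. It rose by 4.11 ± 0.51 on K12 and 4.45 ± 0.56 on tnaA. Its exons lie opposite those of fos-1, which encodes a Fos-type transcription factor and rose by 1.27 ± 0.08 on K12, and 4.5% of its bases face the fos-1 coding exons. The most abundant antisense gene, anr-8, was not called, with 6.52 and 7.44 CPM in late K12 worms against 5.91, 5.93 and 5.99 CPM in early K12 worms (0.23 ± 0.14, edgeR adjusted p = 0.150). With library sizes in place of TMM factors it was called higher in late worms on K12 (0.65) and on tnaA (0.82). It lies within the span of tpra-1, which rose by 2.00 ± 0.13 on K12. linc-9 was not called on K12 (-0.04 ± 0.19) or on tnaA (0.40 ± 0.21), but was called on tnaA with library sizes (0.88) and with the compared groups alone (0.45).

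**Figure D3:**
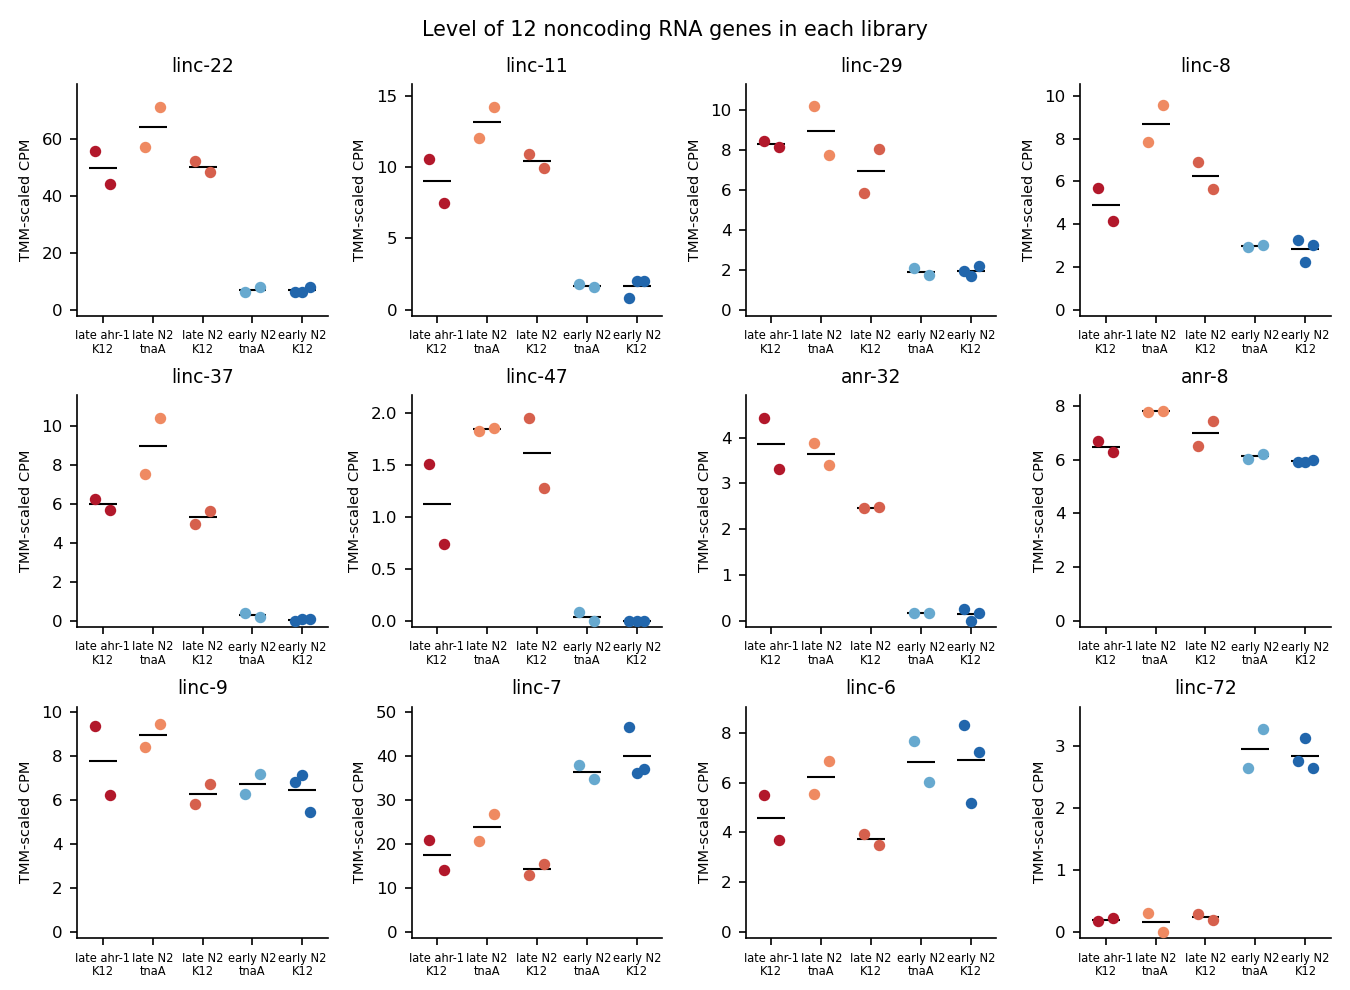
TMM-scaled CPM of 12 noncoding genes in each library, with lines at group means and groups in the same order in every panel (late ahr-1, late tnaA, late K12, early tnaA, early K12). linc-22, linc-37, linc-47 and anr-32 are high in all late libraries and low in all early ones, anr-8 and linc-9 were not called on this scale but were called higher on tnaA with library sizes, and linc-7 and linc-72 are lower in late libraries.

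Fewer genes fell. linc-72 had 0.295 and 0 CPM in late tnaA worms, 0.286 and 0.181 CPM in late K12 worms, 2.63 and 3.26 CPM in early tnaA worms, and 2.75, 3.12 and 2.65 CPM in early K12 worms. The ages were well apart on both bacteria (-3.54 ± 0.53 on K12 and -3.96 ± 0.60 on tnaA). The coding gene on its other strand, F46C5.1, which faces 1.8% of its bases, rose by 3.31 ± 0.31 on K12, whereas its left neighbour F46C5.10 fell by 3.03 on the log2 scale.

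linc-7, the gene with the second most reads, had 20.9 and 14.1 CPM in late ahr-1 worms, 20.6 and 26.9 CPM in late tnaA worms, 13 and 15.4 CPM in late K12 worms, 37.8 and 34.8 CPM in early tnaA worms, and 46.6, 36.1 and 37.0 CPM in early K12 worms. Each late library was below each early one. The change was -1.49 ± 0.17 on K12 (edgeR adjusted p = 2.69e-06) and -0.64 ± 0.18 on tnaA (edgeR adjusted p = 0.00526). With library sizes or all counted reads in place of TMM-scaled sizes the change on tnaA was -0.16 and -0.24 and not called, and it was not called without late tnaA replicate 2 either (-0.44). linc-7 lies within the span of C09G1.4, which rose by 1.40 ± 0.18 on K12, and touches none of its exons.

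The falls of linc-6 (-0.89 ± 0.24), linc-4 (-1.11 ± 0.31), linc-15 (-0.92 ± 0.34) and linc-63 (-1.39 ± 0.48) on K12 were each lost when library sizes replaced TMM factors. linc-4 was also lost without late K12 replicate 3, linc-15 without late K12 replicate 1 or early K12 replicate 2, and linc-63 without late K12 replicate 1 or early K12 replicate 1. linc-142 fell on K12 (-1.84 ± 0.47) and was not called without late K12 replicate 1. On tnaA, linc-63 fell (-2.12 ± 0.58). The levels behind these calls were low except for linc-6, which had 3.94 and 3.51 CPM in late K12 worms against 8.33, 5.21 and 7.24 CPM in early K12 worms.

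Coding genes on the other strand of the tested noncoding genes had no common direction. Of 12 such pairs on K12, 6 had the same sign. sdc-2, a gene of X-chromosome dosage compensation, rose by 1.52 ± 0.08 on K12 beside a rise of 1.93 in anr-16. Of the anr-16 bases, 78% face sdc-2, so the unknown strand setting bears most on this pair. By contrast, the cell cycle kinase gene cdk-2 fell (-0.48 ± 0.07) and anr-45 rose, and ztf-1, a zinc finger gene, fell (-0.46 ± 0.07) while anr-34 rose (2.58). Of 6 same-strand pairs with both genes tested, 5 had the same sign, among them linc-2 with pcf-11, a gene of transcription termination (1.0 ± 0.31 and 0.47 ± 0.06), and linc-16 with the F-box gene fbxa-3 (1.23 ± 0.32 and 3.36 ± 0.23). Of linc-2, 65.4% of the bases are shared with pcf-11, and of linc-16, 87.3% lie in coding exons of fbxa-3 or of fbxc-19 on the other strand. linc-16 was not called without late K12 replicate 3. Without genes that touch a coding exon, 13 of 37 rose and 6 fell on K12, with a median of 0.89, and 17 rose and 2 fell on tnaA, with a median of 1.40.

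**Figure D4:**
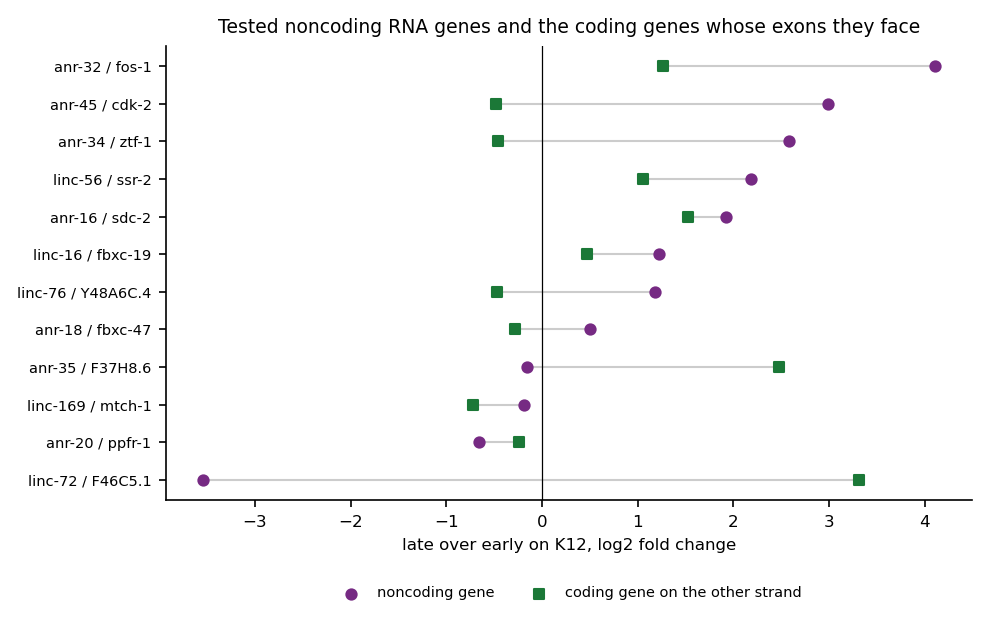
Log2 fold change of late over early worms on K12 for tested noncoding genes (circles) and for the coding gene whose exons lie opposite theirs (squares), a line joining each of the 12 pairs. Signs match in 6 pairs, and linc-72 with F46C5.1 is the widest pair of opposite sign.

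The loss of bacterial indole was asked about in late worms, with late tnaA set against late K12. Only linc-7 was called, higher on tnaA by 0.72 ± 0.19 (edgeR adjusted p = 0.0307), and 0 of 55 were called lower, where 4.27% of all genes were called higher and 5.85% lower. An unadjusted p under 0.05 was found for 10 noncoding genes, all higher on tnaA (18.2%, against 26.4% of all genes in either direction), and DESeq2 called 1 higher and 0 lower. The call of linc-7 was lost without any one of the late tnaA or late K12 libraries, with adjusted p of 0.0531 to 0.241, and over 20 other settings its adjusted p ran from 2.06e-06 to 0.241. The authors' deposited table of this comparison lists linc-7 as the only one of the 216 genes, with a log2 fold change of -0.49 and an adjusted p of 0.008, in the direction of K12 over tnaA.

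The median change of the noncoding genes was 0.40, against 0.06 for all genes, and 44 of 55 were above 0, against 56.7% of all genes. The group as a whole was not tested, and 1.82% of it was called higher. For linc-37 the change was 0.74 ± 0.25, for linc-6 0.72 ± 0.26 and for linc-22 0.34 ± 0.13 (edgeR adjusted p = 0.0725, 0.0983 and 0.110), none of them called. These 3 had both late tnaA libraries above both late K12 libraries, as had 27 of the 55 noncoding genes and 32.8% of all genes. The late tnaA libraries also had more reads outside genes, and germline and oocyte markers were called lower in 18 of 19 genes, with a summed level of 7401 and 6990 CPM in late tnaA libraries against 9965 and 9427 CPM in late K12 libraries. The part of these shifts in the result was not tested.

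In late ahr-1 mutants against late N2 worms on K12, 0 noncoding genes were called in either direction by edgeR and 0 by DESeq2, whereas 12.3% of all genes rose and 12.2% fell in the mutant. An unadjusted p under 0.05 was reached by 3, linc-2 (0.77 ± 0.30) and, lower in the mutant, linc-40 (-1.58) and linc-35 (-1.15), with adjusted p between 0.0710 and 0.0813, 5.45% of the noncoding genes against 36.8% of all genes. The median change was 0.21, against 0 for all genes. The typical standard error of a noncoding gene here was 0.59 on the log2 scale, so small changes were not detectable at these read numbers. Sperm markers were called higher in 27 of 33 tested genes of that list. They summed to 95.7 and 107 CPM in the late ahr-1 libraries against 7.26 and 7.68 CPM in the late N2 libraries on K12. Germline and oocyte markers were called lower in 18 of 19 genes, as on tnaA, at a summed 6568 and 7872 CPM in the late ahr-1 libraries. The late ahr-1 libraries also had more reads outside genes (13.8% and 11.6%) than the late N2 libraries on K12 (8.56% and 8.27%). The part of these shifts in the result was not tested. The 216 genes had 0 entries in the authors' deposited table of this comparison, which lists 2071 genes. Both late comparisons use the same late K12 libraries.

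**Figure D5:**
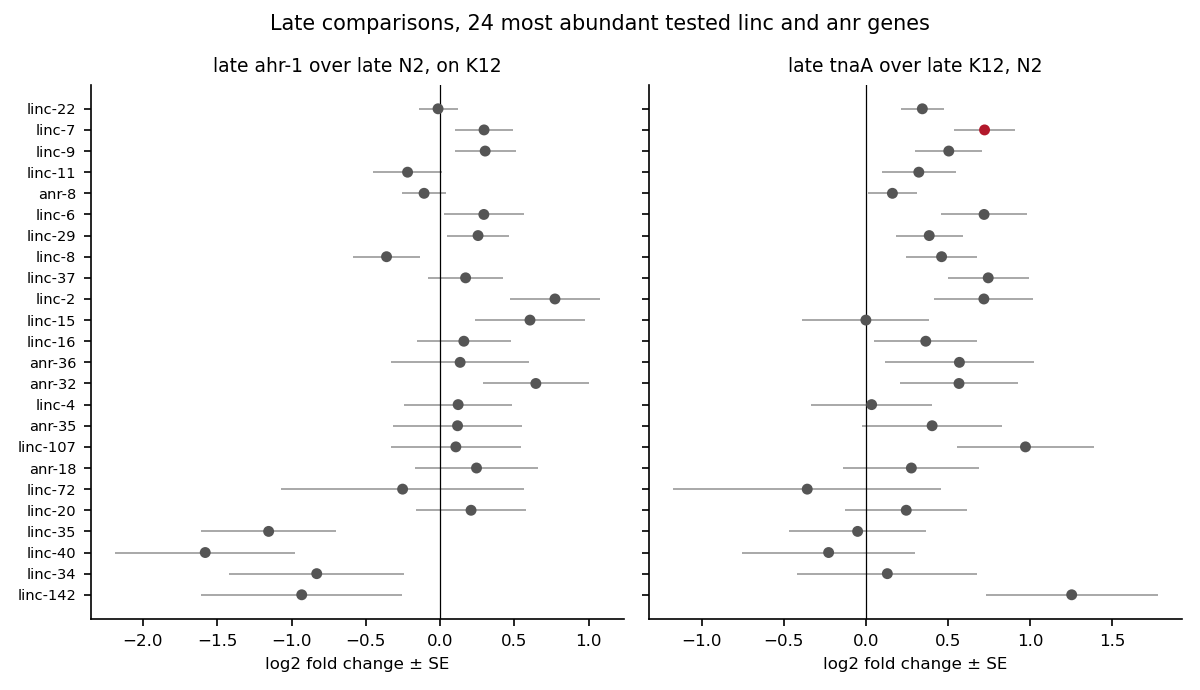
Log2 fold change with standard error for the 24 tested noncoding genes with the highest mean CPM, for late ahr-1 over late N2 worms on K12 (left) and for late tnaA over late K12 in N2 worms (right). Only linc-7 on the right, in red, was called, and 44 of all 55 tested genes are above 0 in that comparison, against 56.7% of all genes.

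In early worms, tnaA against K12 gave 0 calls among the noncoding genes by edgeR and by DESeq2 and 1 at an unadjusted p under 0.05 (1.82%, against 7.55% of all genes; linc-37, 2.19 ± 0.89, on 7 early tnaA and 2 early K12 reads), while 0.0529% of all genes were higher and 0.0132% lower. The difference between the ageing changes on tnaA and on K12 was called for 0 of the 55 by edgeR, against 0.971% of all genes higher and 1.43% lower, and 2 had an unadjusted p under 0.05 (3.64%, against 21.3% of all genes). For linc-7 this difference was 0.86 ± 0.24 (edgeR adjusted p = 0.0722), a smaller fall on tnaA. DESeq2 called it, and it passed in 5 of 20 other settings, where its adjusted p ran from 2.00e-05 to 0.247.

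Of the genes known from published work, linc-73, whose knockout in the worm was reported to change its neighbour unc-104, was too low to test, with 23 reads in all libraries. The long noncoding RNA tts-1, which does not carry a linc or anr name and was reported to act on ribosomes in long-lived worms, had 1174 and 1064 CPM in late ahr-1 worms, 933 and 808 CPM in late tnaA worms, 641 and 697 CPM in late K12 worms, 88.8 and 101 CPM in early tnaA worms, and 100, 89.7 and 92.4 CPM in early K12 worms. It rose with age (2.83 on K12 and 3.2 on tnaA), as linc-22 did, and was higher in late tnaA (0.38, edgeR adjusted p = 0.0178) and late ahr-1 worms (0.74, edgeR adjusted p = 1.53e-04) than in late K12 worms. rncs-1, a noncoding RNA that inhibits Dicer, was also higher in late tnaA (0.50) and late ahr-1 worms (0.61). tts-2 rose with age by 0.80 ± 0.29 on K12 (edgeR adjusted p = 0.0254) and by 2.83 ± 0.40 on tnaA. On K12 the ages overlapped, with 30.9 and 19.4 CPM in late and 6.91, 16.6 and 19.6 CPM in early worms. tts-2 was lower in late ahr-1 worms than in late K12 worms (-1.10). Of the piRNA genes, 6 of 13407 could be tested, and 1 rose and 1 fell on K12. Summed over all 13407, reads on these genes stood at 46.5 to 62.3 CPM in late and 24.04 to 25.2 CPM in early libraries, so every late library was above every early one. The sum rests on 301 to 1057 reads per library, with 0 reads on 12934 to 13336 of the genes. Whether these reads come from piRNAs or from longer transcripts over the same genes was not tested, so the sum is not a level of piRNAs.

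Genes that degrade or silence such RNAs moved in both directions. Of 12 exosome genes, 2 rose and 5 fell with age on K12, and 1 rose and 9 fell on tnaA. The subunit gene exos-2 fell by 0.73 on K12 and by 1.05 on tnaA on the log2 scale, and exos-3 by 0.56 and 0.84, whereas exos-7 rose (0.42 and 0.54). Of 9 nonsense-mediated decay genes, 3 rose and 3 fell on K12, and 2 rose and 4 fell on tnaA. The 5′ to 3′ exonuclease gene xrn-1 rose (0.68 and 0.85). In the nuclear RNAi list, the germline Argonaute gene hrde-1 fell (-0.83 on K12 and -1.21 on tnaA) and the somatic one, nrde-3, rose (0.42 and 0.76), with 2 of 5 called in each direction on K12. Of 6 genes of double-stranded RNA handling, 1 rose and 4 fell on K12, among them the helicase gene drh-3 (-0.76). These values are on the TMM scale, and library sizes alone would move them up by the shifts given above.

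Marker lists moved with age beside the noncoding genes. On K12, 18 of 19 germline and oocyte genes, 9 of 9 body wall muscle genes and 9 of 9 intestine genes fell. Of 14 neuronal genes, 10 rose and 2 fell on K12, and 11 rose and 2 fell on tnaA. Of 6 tested hypodermis genes, 3 rose and 2 fell on each bacterium. Intestine genes summed to 675 to 995 CPM in late and 2750 to 3590 CPM in early libraries, and hypodermis genes to 173 to 268 and 1390 to 1540 CPM. Summed levels were 523 to 628 CPM in late and 358 to 378 CPM in early libraries for neuronal genes, and 1100 to 1260 CPM in late and 5460 to 6520 CPM in early libraries for muscle genes. Germline and oocyte genes summed to 6570 to 9970 CPM in late and 18400 to 19800 CPM in early libraries. Sperm genes summed to 7.26 to 107 CPM in late and 32.9 to 317 CPM in early libraries, and embryo genes to 86.6 to 108 CPM in late and 47.05 to 55.4 CPM in early libraries. The embryo genes had no common direction, since of 11 tested, 4 were called higher and 3 lower on K12, and 4 higher and 2 lower on tnaA. The part of these marker lists in the rise of noncoding RNA was not tested. With both sperm-rich early libraries left out, the median of the noncoding genes on K12 was 1.04.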

How the data were processed

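The authors deposited, per library, a table of read counts per gene, raw and not normalized, and, per the submitters' processing notes, used Trim Galore, STAR, HTSeq 0.6.1p2 and DESeq2. No source used here states other versions, settings, the genome build, the strand setting or whether poly(A) RNA was selected. The authors also deposited DESeq2 tables of the late comparisons, from which log2 fold changes and p-values (adjusted) were taken. Their 8 per-sample columns of normalised values were not used. Lines for reads in no gene and ambiguous reads were kept out of library sizes.

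In R 4.3.3, edgeR 4.0.16 was used. Genes passing filterByExpr by group (minimum count 10) were TMM-scaled and fitted in 1 quasi-likelihood model with 5 group means over all 11 libraries, leaving 6 residual degrees of freedom. The F test is two-sided, with Benjamini-Hochberg adjustment over 15133 genes within each of 6 comparisons and calls at an adjusted p under 0.05. CPM values are TMM-scaled. Errors of log2 fold changes are standard errors. Scripts were tested on simulated data. Alternatives were other scalings and filters, a replicate block, the compared groups alone, DESeq2 1.42.0, and each library left out.

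Named genes were the 12 with the highest mean CPM, up to 8 called rises and 8 called falls per comparison with at least 0.5 CPM in the higher group, all called in late or early comparisons, those in the authors' tables, and linc-73, 26 in all; anr-16, anr-34, linc-14, linc-35, linc-40 and linc-45 were named after their values were seen. The genes and lists were chosen with earlier results of these data known.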

Additional observations from a re-analysis of the deposited data

Results flagged for a closer look

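Among the 5 early libraries, K12 replicate 3 had a share of reads outside genes of 6.14%, below the 6.95% to 7.19% of the other early libraries, a gap large for a group of this size. Chance gives about 1 such value in 20 groups. Several measures were screened in late and in early libraries, so chance has more occasions to give such a value. It is also 1 of the 2 early libraries with high sperm markers.

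linc-14 moved in opposite directions with age, by -0.63 on K12, with both late libraries below all early ones, and by 0.49 on tnaA, with both late libraries above both early ones. Neither change was called (edgeR adjusted p = 0.282 and 0.417). The difference between them was 1.12 ± 0.74 (edgeR adjusted p = 0.409), on 89 reads in all libraries.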

How the results depend on the processing

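Of 39 calls of named genes, 27 held in every setting in which the gene was tested, and 0 were reversed in any. Some genes were not tested in all 20 settings, and linc-90 and linc-103 on tnaA were tested in 18. Genes rising on K12 numbered 11 (tnaA 13) with a mean of at least 1 CPM, and 13 on K12 without genes touching coding exons, chosen after seeing the data. Falling genes on K12 numbered 3 with library sizes only and 3 with all counted reads as library size, where rising genes numbered 29 and 29 on K12 and 36 and 34 on tnaA. In late tnaA against late K12, 2 were higher with no filter, 5 with the compared groups alone, and 2 without both sperm-rich early libraries. In late ahr-1 against N2, 1 was higher with the compared groups alone, and 1 was lower with no filter, 2 at 1 CPM and 1 with the groups alone. The age-by-bacteria difference had 1 higher gene with no filter, the groups alone or DESeq2. The late minus early difference of the noncoding sum was 129 RPM, 83 on TMM-scaled values and 72.1 without linc-22. Leaving out 1 library gave 18 to 25 higher and 5 to 8 lower on K12, 23 to 25 and 2 to 4 on tnaA, 0 to 1 higher in late tnaA against K12, 0 to 1 either way for ahr-1, and 0 to 1 for the difference. A lone library left in a group is assumed to vary like the others. With a replicate block 0 genes were called in late tnaA against late K12 (linc-7, adjusted p = 0.0649). Replicate numbers are not said to mark a shared batch, and the main fit did not pair them. Of 16 same-number pairs, 2 correlated over 0.1 (-0.545 to 0.149), both between late and early tnaA. With 2 or 3 libraries in a group, these correlations cannot show whether the numbers pair the samples. Depth limited the tests to 55 of 216 genes.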
